A study of Mus musculus with 28 samples.

Results

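The 10 genes described here are transcription factors that divide the embryonic brain along its anterior to posterior axis, from the forebrain to the isthmus, the boundary between midbrain and hindbrain: Otx1, Otx2, Gbx2, En1, En2, Six3, Pax6, Fezf2, Dmbx1 and Irx3. They were chosen by name, with earlier results of these data known, and they are 10 of 19421 genes in the table and 10 of the 16837 that passed a filter on low values (10 or more normalized counts in 2 or more libraries). No threshold on a measured value entered the choice. The data are RNA-seq of 28 libraries from 7 mouse embryonic stem cell lines, all derived from the A2loxCre parental line and each holding 1 Dox-inducible cassette with the mVenus reporter. The cassette carries Atoh1 alone (iAtoh1), Gfi1 alone (iGfi1), Pou4f3 alone (iPou4f3), Gfi1 with Atoh1 (iG+A), Gfi1 with Pou4f3 (iG+P), Pou4f3 with Atoh1 (iP+A) or the 3 factors together (iGPA). EBs (embryoid bodies) received 2 µg/ml of doxycycline (Dox) for 48 h and mVenus+ cells were sorted at day 6, whereas no Dox libraries come from whole, unsorted EBs of the same line at day 6, so that Dox and sorting cannot be told apart in the 7 comparisons of Dox with no Dox. Comparisons of Dox effects, and of Dox libraries, between lines have the sort on both sides. Each group has 2 libraries from different clones of the line, and p-values therefore measure the spread between pairs of clones.

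The neural plate is patterned by mutually repressive homeobox genes. Otx2 marks forebrain and midbrain and Gbx2 the anterior hindbrain, and their common border sets the position of the isthmic organiser, where Fgf8 and Wnt1 are secreted and En1 and En2 are expressed on both sides. Six3 defines the anterior forebrain and eye field, Fezf2 the forebrain, Pax6 the dorsal forebrain, eye and parts of the caudal neural tube, Dmbx1 the diencephalon and midbrain, and Irx3 the territory behind the anterior forebrain. Otx2 and Gbx2 are also expressed in pluripotent cells, Otx2 in the primed epiblast and Gbx2 in the naive state. Atoh1, Gfi1 and Pou4f3 are transcription factors (TFs) of hair cell (HC) differentiation, and Atoh1 is also a proneural factor of the dorsal hindbrain.

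Levels are given as normalized counts, the authors' counts after scaling for library depth, and a difference between groups as a log2 fold change of (normalized count + 1) with its standard error after ±. This scale understates the change of genes with few counts. A gene was called where the limma adjusted p (Benjamini-Hochberg over all genes tested) was under 0.05 and the log2 fold change at least 1.5 in either direction. Normalized counts summed to between 36.8 and 40.4 M per library, and 17628 to 18074 genes were above 0. The transgenes followed the labels: with Dox, Atoh1 had 12816 to 21242 normalized counts in the lines with its cassette, Gfi1 8119 to 12487 and Pou4f3 4694 to 19883, against at most 120.1, 119 and 101 in all other libraries. Levels are per gene and not per length, so no gene's level is set against another's. In sorted cells and whole EBs, fewer cells of a type and less RNA per cell cannot be told apart.

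Sequences upstream of Six3, Gbx2, En1 and Dmbx1 are shown because these 4 genes passed the threshold in the largest number of lines or by the largest fold. Each is the 250 bases before the annotated start, 5′ to 3′ on the gene's strand, from RefSeq in GRCm38.p6, with matches to the E-box CANNTG, the motif of Atoh1 and other bHLH factors, in capitals. Six3 lies at chr17:85620584-85620833 on the plus strand, Gbx2 at chr1:89931177-89931426 on the minus strand, En1 at chr1:120602237-120602486 on the plus strand and Dmbx1 at chr4:115939927-115940176 on the minus strand.
Six3: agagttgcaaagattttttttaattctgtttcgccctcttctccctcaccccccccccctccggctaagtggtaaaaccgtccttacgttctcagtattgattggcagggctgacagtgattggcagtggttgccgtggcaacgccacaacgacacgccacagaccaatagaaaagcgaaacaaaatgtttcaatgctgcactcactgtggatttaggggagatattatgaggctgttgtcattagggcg
Gbx2: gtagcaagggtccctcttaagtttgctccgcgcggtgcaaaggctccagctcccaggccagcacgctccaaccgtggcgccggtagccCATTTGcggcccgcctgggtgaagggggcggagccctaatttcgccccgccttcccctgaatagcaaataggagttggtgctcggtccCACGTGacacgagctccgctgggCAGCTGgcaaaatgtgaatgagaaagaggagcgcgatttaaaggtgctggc
En1: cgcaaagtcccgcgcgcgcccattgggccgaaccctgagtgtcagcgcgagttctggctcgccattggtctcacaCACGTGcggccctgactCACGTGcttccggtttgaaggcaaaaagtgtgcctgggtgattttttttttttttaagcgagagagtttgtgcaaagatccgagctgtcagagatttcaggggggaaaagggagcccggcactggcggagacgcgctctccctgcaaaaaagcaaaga
Dmbx1: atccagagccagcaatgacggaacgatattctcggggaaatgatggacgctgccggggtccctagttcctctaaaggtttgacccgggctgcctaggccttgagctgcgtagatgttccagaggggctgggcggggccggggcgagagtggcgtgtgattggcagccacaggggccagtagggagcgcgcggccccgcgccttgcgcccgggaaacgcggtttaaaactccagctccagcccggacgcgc
The Gbx2 window holds 3 E-boxes, 1 of them the CAGCTG type, and the En1 window 2, while the Six3 and Dmbx1 windows hold 0. Of 32851 windows of this length over all genes, 66.2% hold an E-box and 13% the CAGCTG type, which is one form of it. The letters AATC, the core of the site that Gfi1 binds, occur on either strand 4 times in the Six3 window, 2 times in that of En1 and 1 time each in those of Gbx2 and Dmbx1, and in 69% of all windows. TAATTA, a homeodomain motif, is in 4.84% of all windows and in none of these 4 windows. A match describes letters and not a bound site. In all, 8 of the 10 genes had a RefSeq promoter entry, and Otx1 and En2 had none.

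The 10 factors did not move as a block. Of 70 values (10 genes in 7 lines) 16 passed the threshold, 10 upward and 6 downward, and 6 genes accounted for them: Otx1, Gbx2, En1, En2, Six3 and Dmbx1. Otx2, Pax6, Fezf2 and Irx3 were called in no line. In a fit pairing Dox and no Dox libraries of equal replicate number, Otx2 was called in iG+A and iG+P and Fezf2 in iAtoh1 cells. In iAtoh1 cells 1 member rose (Otx1) and 1 fell (Dmbx1), where 2.89% and 2.52% of all genes tested were called up and down. In iGfi1 cells 2 rose (Gbx2, Dmbx1) and 1 fell (En1), against 2.15% and 2.67% of all genes. In iPou4f3 cells limma called 0 members, against 1.47% and 0.606% of all genes, and at an unadjusted p under 0.05 there were 1 higher (Pax6) and 1 lower (Fezf2). In iG+A cells 1 rose (Dmbx1) and 2 fell (En1, En2), against 7.35% and 4.95%. In iG+P cells 2 rose (Gbx2, Dmbx1) and 1 fell (En1), against 5.16% and 5.36%. In iP+A cells 2 rose (Otx1, Six3) and 0 fell, against 4.7% and 2.58%, with 1 member lower at an unadjusted p under 0.05. In iGPA cells 2 rose (Gbx2, Six3) and 1 fell (En1), against 8.65% and 5.31%. The median log2 fold change of the 10 members ran from -0.95 in iG+P to 0.74 in iGPA cells, and that of all genes tested from -0.03 to 0.02.

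**Figure D1:**
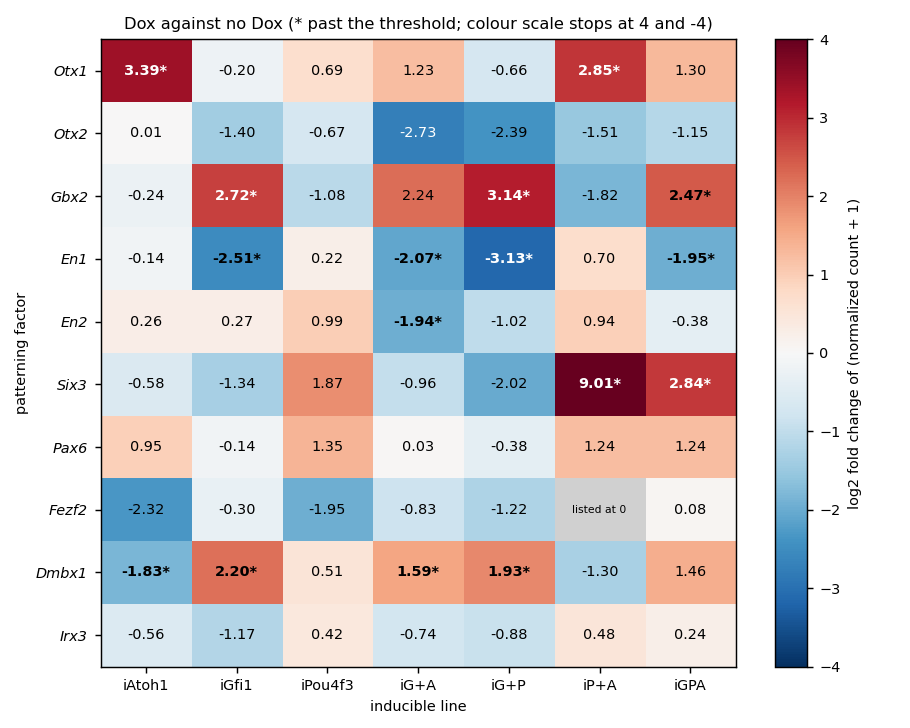
Log2 fold change of (normalized count + 1) for Dox against no Dox, with the 10 factors as rows and the 7 lines as columns, and an asterisk on the 16 values past the threshold. Six3 in iP+A cells, at 9.01, lies beyond the end of the colour scale, Gbx2 is positive and En1 negative in the 4 lines with Gfi1, and the grey cell is Fezf2 in iP+A cells, listed at 0 in both Dox libraries.

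Six3 (Entrez 20473, chromosome 17, 86012948 to 86031153, NCBIM37) gave the largest change of the 10. In iP+A cells it had 2202 and 1987 normalized counts with Dox, against 4.47 and 2.02 in no Dox EBs, so it went from a few counts to the highest levels of any of its libraries in both Dox libraries. The ratio of the means was 646 and the log2 fold change 9.01 ± 0.99 (limma adjusted p = 2.26e-06). The untreated side of that ratio rests on few reads, 1 read being worth 0.816 to 1.22 normalized counts. In iGPA cells, which carry the same 2 factors together with Gfi1, Six3 had 81.9 and 51.2 with Dox against 10.4 and 6.47 without, a log2 fold change of 2.84 ± 0.99 (limma adjusted p = 0.0257). All Dox libraries of both lines were above all of their no Dox libraries. With either factor alone, Six3 stayed below its iP+A Dox levels, and 1 iPou4f3 Dox library lay within the range of the iGPA ones. Six3 had 11.03 and 9.34 with Dox against 29.8 and 8.06 in iAtoh1 cells, and 25.4 and 64.6 against 2.48 and 36.2 in iPou4f3 cells, where the groups overlapped and the log2 fold change of 1.87 missed the threshold (limma adjusted p = 0.335).

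The Dox effect on Six3 in iP+A cells exceeded that in iAtoh1 cells by 9.59 on the log2 scale (standard error 1.40, limma adjusted p = 3.12e-04) and that in iPou4f3 cells by 7.14 ± 1.40 (limma adjusted p = 0.00694). The effect in iGPA cells was lower than in iP+A cells (log2 difference -6.17 ± 1.40, limma adjusted p = 0.00481). Against iG+A cells, the iGPA effect was higher by 3.80, which did not pass (limma adjusted p = 0.146). It passed with a replicate block, a fit that pairs the Dox and no Dox libraries of equal replicate number in a line (adjusted p = 0.0300). In the lines with Gfi1 but without the Pou4f3 and Atoh1 pair, Six3 was at 4.24 and 4.52 with Dox in iGfi1, 1.17 and 2.68 in iG+A, and 1.08 and 3.56 in iG+P cells. The iG+P value, -2.02, passed only with the replicate block (adjusted p = 0.0298). The Dox effect in iG+P minus that in iPou4f3 cells, -3.89 (limma adjusted p = 0.0626), was also called with the block (adjusted p = 0.0105) and without iPou4f3 no Dox replicate 2 (-5.60, 0.00903). The iP+A rise and its differences from iAtoh1 and iGPA were called without each library in turn. The difference from iPou4f3 was lost when only its groups were fitted (adjusted p = 0.0629). The iGPA rise was lost without any 1 of its 4 libraries (2.50 to 3.17, limma adjusted p 0.0538 to 0.130).

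Six3os1, a lincRNA on the opposite strand that overlaps Six3, had 786.8 and 736.5 normalized counts with Dox in iP+A cells against 1.68 and 7.46 without. The iGPA values were 90.1 and 65.7 against 14.2 and 3.585. Over the 28 libraries it was the gene whose log2 level was most like that of Six3 (Pearson r = 0.964, a description over libraries that share lines), followed by Ctnna2 (0.892) and Vstm2l (0.883). By the study's methods Kallisto was run at its defaults, which do not use strand, so that reads in the overlap of Six3 and Six3os1 cannot be told apart. Neuronal markers also rose: 9 of 10 neuron genes in iP+A cells and 7, with 1 fall, in iGPA cells. Their summed level was 22587 to 28350 normalized counts with Dox against 1499 to 2156 without in iP+A, and 6850 to 6985 against 1308 to 1316 in iGPA cells. Neuron genes rose as well where Six3 was not called, 3 each in iAtoh1, iPou4f3 and iG+P and 4 in iG+A cells (1, 0, 1 and 2 fell), with summed levels of 1278 to 4221 with Dox in these 4 lines. In iGfi1 cells, where Six3 was not called either, 0 neuron genes rose and 1 fell (Gap43). The part of neurons in the Six3 values was not tested. Six6, the closest paralog of Six3, was called in no line and reached at most 16.6 normalized counts.

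**Figure D2:**
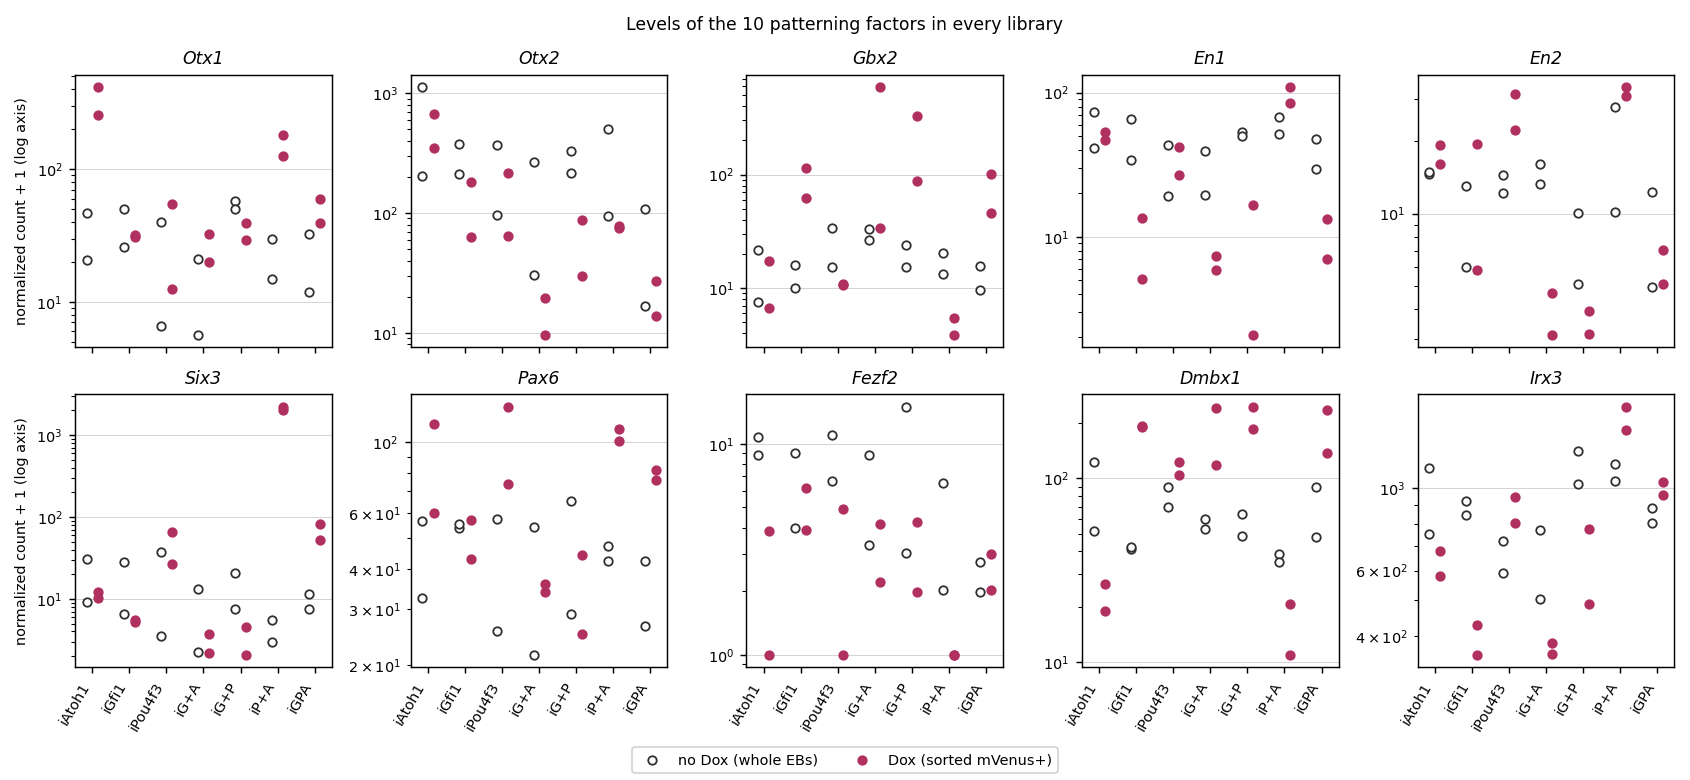
Normalized count plus 1 on a log axis for each of the 10 factors in every library, by line, with open circles for the 2 no Dox libraries and filled circles for the 2 Dox libraries. The iP+A Dox libraries stand apart for Six3 (2202 and 1987), the iAtoh1 and iP+A Dox libraries are highest for Otx1, and the no Dox libraries of Otx2 spread from 15.9 to 1127.

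Otx1 (Entrez 18423, chromosome 11, 21894767 to 21902900), which acts with Otx2 in forebrain and midbrain, rose in the 2 lines that carry Atoh1 without Gfi1. In iAtoh1 cells it had 255 and 414 normalized counts with Dox against 45.9 and 19.6 without, 10.2 times the mean level (log2 fold change 3.39 ± 0.81, limma adjusted p = 0.00532). In iP+A cells it had 181 and 124 against 28.5 and 13.8, 7.21 times the mean level (2.85 ± 0.81, limma adjusted p = 0.0146). In both lines the groups did not overlap. With Gfi1 beside Atoh1 no change passed: Otx1 had 19.1 and 31.7 with Dox against 4.64 and 20.2 in iG+A cells (1.23, limma adjusted p = 0.235), and 58.3 and 38.3 against 31.5 and 10.8 in iGPA cells (1.30, limma adjusted p = 0.200). The groups overlapped in iG+A and not in iGPA cells. The Dox effect in iG+A was lower than in iAtoh1 cells by 2.16 (log2 difference -2.16, 95% interval -4.55 to 0.23, limma adjusted p = 0.222), a difference that was called with the replicate block (adjusted p = 0.0349). The difference between iGPA and iP+A was -1.55 (95% interval -3.94 to 0.85, limma adjusted p = 0.379). In iGfi1, iPou4f3 and iG+P cells Otx1 was at a log2 fold change of -0.20, 0.69 and -0.66, none of which passed. The iAtoh1 call was lost without no Dox replicate 2 (2.80, limma adjusted p = 0.0618) or Dox replicate 2 (3.04, 0.052), and the iP+A call without no Dox replicate 2 (2.35, 0.118) or Dox replicate 1 (2.58, 0.106).

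Otx2 (Entrez 18424, chromosome 14, 49277354 to 49287319), the main determinant of forebrain and midbrain identity, was called in no line and its untreated level differed widely between clones. It had from 15.9 to 1127 normalized counts in the 14 no Dox libraries (median 214), 71.1 times between the lowest and the highest, and 8.58 to 674 in the 14 Dox libraries (median 68.9). Within lines, the no Dox clones had 1127 and 204 in iAtoh1, 29.4 and 266 in iG+A, 93.9 and 501 in iP+A and 108 and 15.9 in iGPA. The lowest Dox values were those of iG+A, 8.58 and 18.3, below both no Dox libraries of that line (log2 fold change -2.73 ± 1.11, limma adjusted p = 0.0577). In iG+P cells the Dox values were 86.1 and 28.7 against 216 and 327 (-2.39, limma adjusted p = 0.109). Both passed with the replicate block (adjusted p = 0.00703 in iG+A and 0.0166 in iG+P). That equal replicate numbers are the same clone is not stated. In the other lines the log2 fold changes were 0.01 in iAtoh1, -1.40 in iGfi1, -0.67 in iPou4f3, -1.51 in iP+A and -1.15 in iGPA. With all untreated libraries as the control, Otx2 was called in iGPA (-3.21, limma adjusted p = 0.00783) and iG+A cells (-3.71, 0.00297). Without iG+A no Dox replicate 1, the iG+A value was -4.30 and called (limma adjusted p = 0.0148). Of 10 pluripotency and epiblast genes 5 fell in iP+A, 4 each in iG+A and iGPA and 2 in iG+P cells and 0 in the other 3 lines (5, 1 and 3 lower at an unadjusted p under 0.05 in iAtoh1, iGfi1 and iPou4f3 by limma). With the replicate block 6, 2 and 3 fell in iAtoh1, iGfi1 and iPou4f3 cells. Nanog in no Dox EBs of iP+A was at 271 and 1596. The part of pluripotent and epiblast cells in the Otx2 values was not tested.

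Six3, Pax6 and Fezf2 are all forebrain genes and did not change alike. Pax6 (Entrez 18508, chromosome 2, 105509053 to 105543317) had 20.5 to 64.1 normalized counts in no Dox libraries and 24.0 to 128 in Dox libraries. It was higher with Dox by a log2 fold change of 1.35 in iPou4f3, 1.24 in iP+A and 1.24 in iGPA cells, with limma adjusted p of 0.148, 0.0815 and 0.0518. In iGPA cells the Dox libraries were at 75.2 and 80.8, above the no Dox values of 41.2 and 25.4, and in iP+A at 109 and 99.7 against 41.2 and 46.3. These values passed neither the p nor the fold threshold. The Dox effect in iG+P minus that in iPou4f3 cells was -1.73 (limma adjusted p = 0.105), which was called with the replicate block (adjusted p = 0.0178) and without iPou4f3 no Dox replicate 2 (-2.32, 0.0487). Pax6os1 and Elp4 overlap Pax6 on the opposite strand, and reads in these overlaps cannot be told apart. Pax6os1 had 727 to 2632 normalized counts over the 28 libraries. It was at 2142 and 2632 with Dox against 1450 and 1262 without in iGPA cells, at 1474 and 1698 against 1171 and 917 in iP+A, and at 1355 and 1177 against 985 and 1078 in iPou4f3 cells. Its Dox libraries were above both no Dox libraries in iAtoh1, iGfi1 and iG+A cells too, where the log2 fold changes of Pax6 were 0.95, -0.14 and 0.03. Its part in the Pax6 values was not tested. Fezf2 (Entrez 54713, chromosome 14, 13174406 to 13178379), which specifies forebrain and subcortical neurons, was scarce. It had 0.982 to 13.97 in no Dox libraries and at most 5.15 with Dox, and it was listed at 0 in 1 Dox library each of iAtoh1 and iPou4f3 and in both of iP+A. It was lower with Dox in iAtoh1 cells (0 and 2.84 against 7.81 and 9.79, log2 fold change -2.32, limma adjusted p = 0.0678), a value that was called with the replicate block (adjusted p = 0.0443) and without Dox replicate 2 (-3.29, adjusted p = 0.0432). Its paralog Fezf1 rose in 1 line, iG+A, with 34.0 and 15.9 against 0 and 1.12.

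Dmbx1 (Entrez 140477, chromosome 4, 115587149 to 115612531), a homeobox gene of the diencephalon and midbrain, rose in 3 of the 4 lines with Gfi1 and fell in iAtoh1 cells. In iGfi1 cells it had 192 and 189 normalized counts with Dox against 40.3 and 41.3 without, 4.67 times the mean level (log2 fold change 2.20 ± 0.43, limma adjusted p = 0.00112). In iG+P cells it had 184 and 244 against 47.5 and 63.1 (1.93, limma adjusted p = 0.00171), and in iG+A cells 241 and 117 against 58.7 and 52.1 (1.59, limma adjusted p = 0.00645). iGPA cells had 136 and 233 against 46.9 and 88.3, and the log2 fold change of 1.46 (limma adjusted p = 0.00966) lay just below the fold threshold. It was called without no Dox replicate 2 (1.90, limma adjusted p = 0.00733), without Dox replicate 1 (1.84, 0.00985) and with all untreated libraries as the control (1.65, 6.04e-04), while it was 1.01 (0.129) without no Dox replicate 1 and 1.07 (0.114) without Dox replicate 2. In these 4 lines the Dox libraries were above the no Dox ones. In iAtoh1 cells it fell, from 122 and 50.5 without Dox to 17.9 and 25.4 with Dox (-1.83 ± 0.43, limma adjusted p = 0.00474). In iP+A cells it had 19.6 and 9.93 against 37.8 and 34.2 (-1.30, limma adjusted p = 0.0331, below the fold threshold). The iP+A value was called with all untreated libraries as the control (-1.93, limma adjusted p = 2.18e-04). In iPou4f3 cells Dmbx1 had 103 and 121 against 68.7 and 88.7 (0.51, limma adjusted p = 0.587).

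The contrast between lines was itself tested. The Dox effect on Dmbx1 in iG+A exceeded that in iAtoh1 cells by 3.42 ± 0.61 (limma adjusted p = 7.95e-04) and that in iGPA exceeded the one in iP+A cells by 2.76 ± 0.61 (limma adjusted p = 0.00384), and both were called without each library in turn. The difference between iG+P and iPou4f3 was 1.42 and did not pass (95% interval 0.15 to 2.70, limma adjusted p = 0.118). The difference between iGPA and iG+A was -0.13 (95% interval -1.40 to 1.14, limma adjusted p = 0.937). The iGfi1 and iG+P calls were kept without each library in turn. The iG+A call was lost without Dox replicate 1 (1.07, limma adjusted p = 0.106), under quantile normalization and when only its groups were fitted. The iAtoh1 call was lost without no Dox replicate 1 (-1.20, 0.097) or Dox replicate 1 (-1.59, 0.0525), when only its groups were fitted, and with all untreated libraries as the control. The genes most like Dmbx1 over 28 libraries were Slc44a5 (r = 0.908), Tmem184a (0.904) and Reep6 (0.897).

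Irx3 (Entrez 16373, chromosome 8, 94322428 to 94325553), which marks the brain behind the anterior forebrain, was the most evenly expressed of the 10 over the no Dox libraries, at 501 to 1257 normalized counts (2.51 times between lowest and highest). With Dox it had 356 to 1650. Its log2 fold change was -1.17 in iGfi1 (428 and 356 against 844 and 922), -0.88 in iG+P and -0.74 in iG+A cells, with limma adjusted p of 9.39e-04, 0.0047 and 0.0128, all below the fold threshold. With Gfi1, Pou4f3 and Atoh1 together it was at 0.24 (957 and 1036 against 883 and 803, limma adjusted p = 0.403). The Dox effect in iG+P was below that in iPou4f3 cells by 1.30 (log2 difference -1.30, limma adjusted p = 0.00788), also short of the fold threshold. Its paralog Irx5 rose in 5 lines, all but iAtoh1 and iGfi1 (log2 fold changes 1.57 to 2.59), Irx2 rose in 3 lines, among them iGPA by 4.15 (limma adjusted p = 1.90e-07), and Irx1 rose in iAtoh1 cells by 1.62. D230002A01Rik, a lincRNA without values here, overlaps Irx3 on the opposite strand, and reads in the overlap cannot be told apart.

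Gbx2 (Entrez 14472, chromosome 1, 91824537 to 91829865), the hindbrain counterpart of Otx2, rose in 3 of the 4 lines with Gfi1. D130058E05Rik, a gene without values here, overlaps Gbx2 on the opposite strand, and reads in the overlap cannot be told apart. Gbx2 had 112 and 60.7 normalized counts with Dox against 15.05 and 9.01 without in iGfi1 cells, 7.18 times the mean level (log2 fold change 2.72 ± 0.94, limma adjusted p = 0.0391). In iG+P cells it had 326 and 86.5 against 14.35 and 23.1 (3.14, limma adjusted p = 0.0144), and in iGPA cells 100.1 and 45.4 against 8.74 and 14.7 (2.47, limma adjusted p = 0.039). In these 3 lines no Dox library overlapped a Dox library. In iG+A cells the clones differed, with 32.9 and 589 against 32.5 and 25.8, the lower Dox library being level with the higher no Dox one, and the log2 fold change of 2.24 missed the threshold (limma adjusted p = 0.0641). Without Dox replicate 1 it was 4.30 and called (limma adjusted p = 5.85e-04). In the lines without Gfi1 the log2 fold changes were below 0 and did not pass: 16.4 and 5.68 against 20.5 and 6.53 in iAtoh1 (-0.24), 9.80 and 9.77 against 32.8 and 14.5 in iPou4f3 (-1.08), and 4.52 and 2.88 against 12.2 and 19.3 in iP+A cells (-1.82, limma adjusted p = 0.170).

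The difference between the Dox effects on Gbx2 was 4.22 for iG+P over iPou4f3 (standard error 1.33, limma adjusted p = 0.034) and 4.29 for iGPA over iP+A cells (standard error 1.33, limma adjusted p = 0.0312), while for iG+A over iAtoh1 cells it was 2.48 (95% interval -0.31 to 5.27, limma adjusted p = 0.228). The Gbx2 calls rest on few libraries. The iGfi1 call was lost without any 1 of its 4 libraries (2.28 to 3.16, limma adjusted p 0.0601 to 0.222) and in limma without trend. The iG+P call was lost without no Dox replicate 1 (2.81, 0.0969) or Dox replicate 1 (2.19, 0.168). The iGPA call was lost without no Dox replicate 1 (2.12, 0.167), no Dox replicate 2 (2.81, 0.0731) or Dox replicate 1 (1.91, 0.220), under quantile normalization and without trend. The difference of iG+P over iPou4f3 was lost without each of its libraries (3.27 to 4.55, limma adjusted p 0.0514 to 0.144) other than iPou4f3 no Dox replicate 2 and iG+P Dox replicate 2. That of iGPA over iP+A was lost without each of its libraries (3.73 to 4.64, limma adjusted p 0.0539 to 0.111) other than iP+A no Dox replicate 1 and iGPA Dox replicate 2, and with a pseudocount of 5. The genes most like Gbx2 over 28 libraries were Ccdc88c (r = 0.886), Pdk3 (0.886) and Foxc2 (0.885). Gbx1, its paralog, fell in iPou4f3 cells (7.12 and 1.96 against 29.3 and 16.7, log2 fold change -2.24, limma adjusted p = 0.0106).

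En1 (Entrez 13798, chromosome 1, 122498995 to 122505873), which is expressed on both sides of the isthmus and in developing midbrain and limb, fell in all 4 lines with Gfi1. It had 12.6 and 4.12 normalized counts with Dox against 65.1 and 33.0 without in iGfi1 cells, 5.88 times lower (log2 fold change -2.51 ± 0.72, limma adjusted p = 0.0155). In iG+A cells it had 6.38 and 4.88 against 18.6 and 38.1 (-2.07, limma adjusted p = 0.0281). In iG+P cells it had 15.7 and 1.08 against 52.2 and 49.15, the Dox libraries differing more from each other than the no Dox ones (-3.13 ± 0.72, limma adjusted p = 0.00237). iGPA cells had 12.3 and 6.05 against 46.3 and 28.5 (-1.95, limma adjusted p = 0.0344). Every Dox library of these lines was below both of its no Dox libraries. In the lines without Gfi1 no change passed: 45.7 and 52.0 against 72.3 and 39.97 in iAtoh1 (-0.14), 25.8 and 41.1 against 18.1 and 42.4 in iPou4f3 (0.22), and 84.2 and 109 against 67.2 and 50.5 in iP+A cells (0.70, limma adjusted p = 0.520).

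The Dox effect on En1 in iG+P was below that in iPou4f3 cells by 3.35 (log2 difference -3.35 ± 1.02, limma adjusted p = 0.0287). The difference was -1.93 for iG+A against iAtoh1 (95% interval -4.07 to 0.21, limma adjusted p = 0.222) and -2.65 for iGPA against iP+A cells (95% interval -4.80 to -0.51, limma adjusted p = 0.0783). The second was called with the replicate block (adjusted p = 0.0357), with a pseudocount of 5 (-2.25, 0.0384) and with only its groups fitted (0.0256). Both were called with all untreated libraries as the control (-2.92 and -3.32, limma adjusted p = 0.00319 and 9.59e-04). Single libraries decided several calls. The iG+P call was lost without Dox replicate 2 (-1.63, limma adjusted p = 0.0791), the iGfi1 call without no Dox replicate 1 (-2.03, 0.129) or Dox replicate 2 (-1.81, 0.140), the iG+A call without no Dox replicate 2 (-1.57, 0.183), Dox replicate 1 (-2.23, 0.0666) or Dox replicate 2 (-1.91, 0.112), and the iGPA call without no Dox replicate 1 (-1.61, 0.172), no Dox replicate 2 (-2.29, 0.0572) or Dox replicate 2 (-1.49, 0.202). The iG+A and iG+P calls were also lost when only their groups were fitted, as was the iG+P difference, which was also lost without each of its libraries (-3.68 to -1.85, limma adjusted p 0.0515 to 0.171) other than iPou4f3 no Dox replicate 2 and iG+P Dox replicate 1. Genes most like En1 over 28 libraries were Gjc1 (r = 0.914), Bin1 (0.912) and Hykk (0.91). En2 (Entrez 13799, chromosome 5, 28492236 to 28500152), its paralog in the midbrain and anterior hindbrain, fell in iG+A cells, from 15.1 and 12.3 to 2.13 and 3.66 (-1.94 ± 0.60, limma adjusted p = 0.0145), and was at -1.02 in iG+P, -0.38 in iGPA and 0.27 in iGfi1 cells, none of which passed. That call was lost without no Dox replicate 1 (-1.80, limma adjusted p = 0.0779) or Dox replicate 1 (-1.65, 0.0953), with a pseudocount of 5 and when only its groups were fitted. Over the no Dox libraries En2 had 3.93 to 26.7 normalized counts, and with Dox 2.13 to 32.7, and its difference between iG+A and iAtoh1 cells was -2.20 (limma adjusted p = 0.0881).

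**Figure D3:**
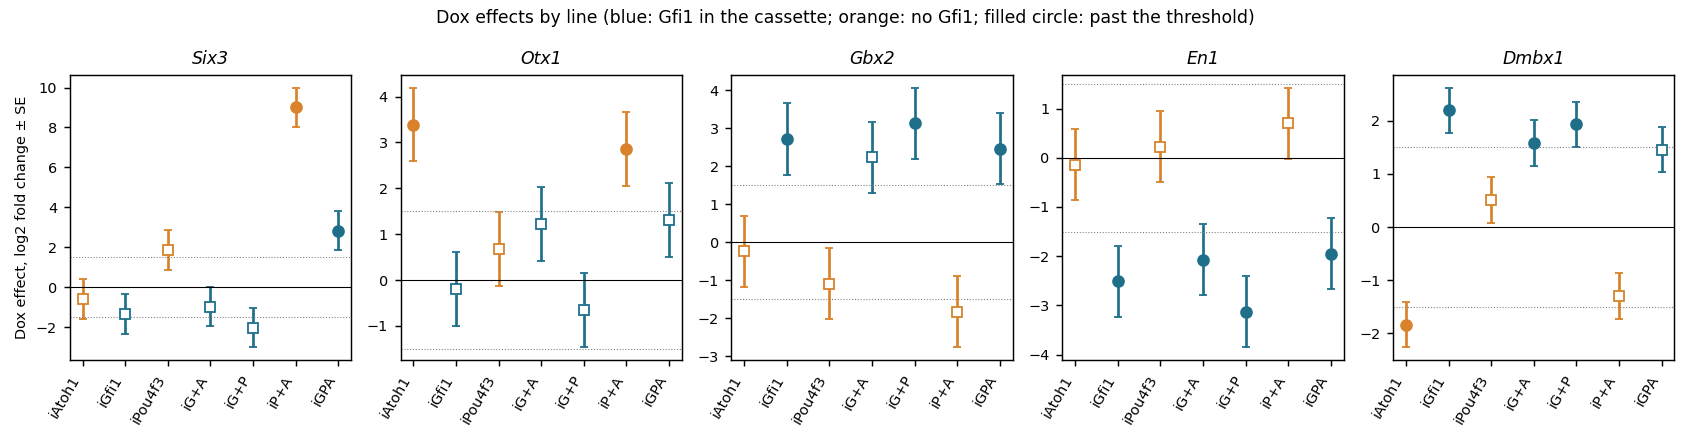
Dox effect (log2 fold change with its standard error as a bar) on Six3, Otx1, Gbx2, En1 and Dmbx1 in each of the 7 lines, blue for cassettes with Gfi1 and orange for those without, filled circles for values past the threshold, open squares for the others, and dotted lines at 1.5 and -1.5. Gbx2 and Dmbx1 lie above 0 and En1 below 0 in each blue line, and the iP+A value of Six3, 9.01, is the highest of the 5 panels.

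After these values had been seen, the 14 Dox libraries were divided by the cassette, 8 with Gfi1 and 6 without, as a description that restates the Dox values above and adds no support to them. Gbx2 was at 32.9 to 589 normalized counts (median 93.3) in the 8 with Gfi1 and 2.88 to 16.4 (median 7.73) in the 6 without. En1 was at 1.08 to 15.7 (median 6.22) with Gfi1 and 25.8 to 109 (median 48.9) without. Neither gene overlapped between these sets, and the division was made because both had followed Gfi1 in the same Dox values. Of all genes tested, 3.84% did not overlap in the higher and 5.51% in the lower direction, and nothing is read from these shares for the 2 genes. Dmbx1 was at 117 to 244 with Gfi1 and 9.93 to 121 without, the overlap coming from 1 iPou4f3 library at 121. The other 7 members overlapped. Over the 14 no Dox libraries Gbx2 was at 6.53 to 32.8 and En1 at 18.1 to 72.3.

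Across the 6 comparisons of Dox effects between lines, the members called were 1 of 10 for iG+A against iAtoh1 (Dmbx1), 2 for iG+P against iPou4f3 (Gbx2, En1, and with the replicate block also Six3 and Pax6), 3 for iGPA against iP+A (Gbx2, Six3, Dmbx1), 1 for iP+A against iAtoh1 (Six3), 0 for iGPA against iG+A and 1 for iP+A against iPou4f3 (Six3). The shares of all genes called in either direction were 6.87%, 7.63%, 7.6%, 2.78%, 2.2% and 1.61%. For iGPA against iG+A, limma called 0 members, and 2 were higher and 0 lower at an unadjusted p under 0.05. The comparisons share groups with each other and are not independent.

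Other genes of the same brain regions were followed in 4 lists, written with earlier results of these data known and each counted over its tested genes in the 7 lines. Of all genes tested, 4.62% of such line values rose and 3.43% fell (1.47 to 8.65% and 0.606 to 5.36% in single lines). Because the lists were so written, a list's share beside these is a description and not a test. In the forebrain list (17 genes, 16 tested), 15 of 112 line values rose (13.4%) and 6 fell (5.36%), at most 4 up in a line. Nr2f1, a nuclear receptor of cortical patterning, rose in iGfi1, iG+A, iP+A and iGPA cells by 1.66 to 2.83. Lhx5 rose in iPou4f3 (329 and 263 against 6.77 and 15.6, 4.70, limma adjusted p = 2.18e-04) and iP+A cells (3.68). Dlx2, a homeobox gene of the ventral forebrain, fell by 2.54 in iG+P cells. The median log2 fold change of the list ran from -0.41 in iG+P to 1.25 in iGPA cells, where 2 rose and 1 fell, and 1 rose and 2 fell under quantile normalization.

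Of 16 genes of the diencephalon and midbrain, 3 to 6 rose and 0 to 2 fell per line, 32 of 112 values up (28.6%) and 7 down (6.25%), with medians of 0.01 to 0.78. The summed level of the list with Dox was above both no Dox libraries in 4 lines and below both in 2, iGfi1 and iG+P. Pax3, a paired-box gene of dorsal midbrain and neural tube, rose in iAtoh1 and in all 4 Gfi1 lines, and in iGPA cells it went from 45.3 and 13.5 to 2489 and 2179 normalized counts (log2 fold change 6.49, limma adjusted p = 4.29e-06). Pax7, its paralog, rose in all 4 Gfi1 lines, by 2.03 in iGfi1, 3.70 in iG+A, 1.85 in iG+P and 2.72 in iGPA cells. Helt, a bHLH factor of midbrain GABAergic neurons, rose in iAtoh1 (280 and 135 against 2.39 and 0.638, 6.37), in iG+A (204 and 1201 against 0 and 1.38, 8.33) and in iGPA cells (289 and 215, listed at 0 without Dox). The homeobox gene Barhl1 rose in every line but iGfi1, by 1.75 in iG+P to 7.16 in iP+A cells, and Barhl2 rose in iAtoh1 (3.47), iPou4f3 (3.93) and iP+A cells (7.26). Phox2a, a determinant of midbrain motor nuclei, fell in all 4 Gfi1 lines, by 2.78 in iGfi1, 2.86 in iG+A, 3.73 in iG+P and 3.32 in iGPA cells. Lmx1a, a LIM homeobox gene of midbrain dopaminergic progenitors, fell in iAtoh1 (-2.65, limma adjusted p = 3.21e-05), iG+A (-1.61, 0.00123) and iP+A cells (-1.89, 5.84e-04) and rose in iGfi1 cells (1.85, 8.75e-04).

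The isthmic organiser list (11 genes) held 10 rises and 2 falls in 77 values (13% and 2.6%), and 12 and 4 with the replicate block. Its median log2 fold change ran from -0.80 in iG+P to 0.47 in iG+A cells, with -0.15 in iGfi1 and 0.07 in iGPA. The summed level of the list with Dox was above both no Dox libraries in 0 of 7 lines and below both in 4. Fgf17, a signal of the isthmus, rose in the 4 Gfi1 lines by 1.77 to 2.99, and Lmx1b, a paralog of Lmx1a, rose in the same 4 lines by 1.73 in iG+A to 4.45 in iG+P cells. How these effects differed from those in the other lines was not tested. Lmx1b in iG+P cells had 407 and 316 normalized counts with Dox against 18.4 and 13.02 (limma adjusted p = 3.54e-06). Pax8 and Wnt1 rose in iG+A cells by 5.32 and 2.98, and Cnpy1 fell in iG+A and iP+A cells. Under quantile normalization the 2 rises and 0 falls of this list in iGPA cells became 1 rise and 2 falls. In the hindbrain list (9 genes), 3 of 63 values rose (4.76%) and 4 fell (6.35%), against 4.62% and 3.43% of all genes, and 5 rose and 5 fell with the replicate block. Hoxb1 rose in iG+A (2.98) and iGPA cells (2.76), Hoxb3 rose in iAtoh1 cells (1.87), and Gbx1 is given above. Over the 7 lines, the medians of this list ran from -0.83 to 1.24. Quantile normalization also turned the counts of rises and falls from 1 and 0 to 1 and 2 in iG+A and from 1 and 1 to 0 and 1 in iGPA cells for the hindbrain list, and from 3 and 1 to 3 and 2 in iGfi1 and from 6 and 2 to 5 and 3 in iG+A cells for the diencephalon and midbrain list.

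**Figure D4:**
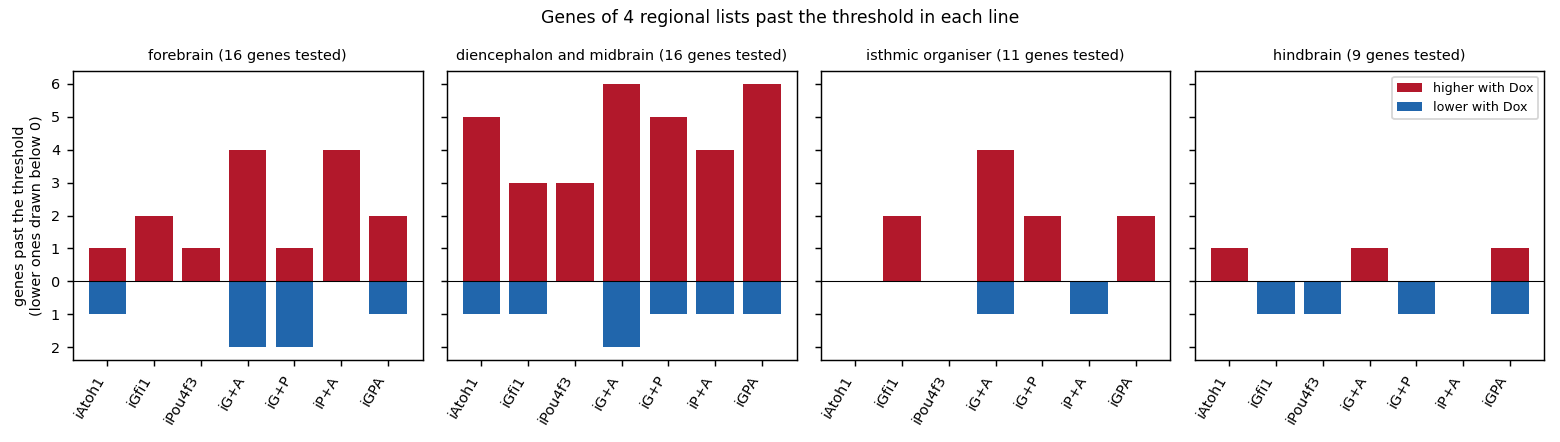
Number of genes past the threshold in each line for 4 regional lists, with genes that rose above 0 in red and genes that fell below 0 in blue. The diencephalon and midbrain list has 3 to 6 genes up in each line. The isthmic list has at most 4 of its 11 genes up in a line, all of them in the 4 lines with Gfi1.

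Lists of other cell types that the EBs could hold moved as well, and their part in the values above was not tested. Over the 7 lines, 12 neural progenitor values of 10 genes rose and 4 fell (17.1% and 5.71% of 70), 13 and 7 with the replicate block, and 29 neuron values of 10 genes rose and 6 fell (41.4% and 8.57%). Of 10 pluripotency and epiblast genes limma called 0 values up (1 was higher at an unadjusted p under 0.05) and 15 down (21.4% of 70), and with the replicate block 29 fell. Of 12 endoderm genes 1 value rose and 16 fell (1.19% and 19%), and 3 rose and 19 fell with the block. Of 8 fibroblast genes 2 values rose and 19 fell (3.57% and 33.9%), the summed level being 46400 to 160893 normalized counts without Dox and 6227 to 116062 with Dox. Of 5 tested pancreatic endocrine genes 13 values rose and 1 fell (37.1% and 2.86%). The rises were those of Neurod1, Nkx2-2, Isl1 and Ins2, and the fall was Pdx1 in iGPA cells. Ins2 had at most 10.6 normalized counts in the lines where it was called. Pax4, Ins1 and Gcg did not pass the filter and reached at most 7.73, 1.23 and 1.96 normalized counts. Of 3 tested lens genes 3 values rose and 2 fell (14.3% and 9.52%), 4 under quantile normalization. Afp was listed at 0 in 1 iPou4f3 and 1 iG+A Dox library, and Pou5f1 was above 0 in all 28, from 174 to 4756 normalized counts.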

How the data were processed

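RNA was measured in 28 libraries, 2 for each of 14 groups (7 lines, with and without Dox). As the study's methods and the submitters' processing notes state, the authors trimmed reads with cutadapt, quantified them with Kallisto on mm9 transcripts, and normalized gene counts with DESeq2 (versions are not given in the sources used here). The deposited table holds log2 values of (normalized count + 1) for 19421 genes, and 107 rows without a gene name were not named here. From steps between low values, 1 read was worth 0.816 to 1.22 normalized counts and depth was estimated at 30.4 to 48 M reads, but only 70.6 to 79.4% of values came out whole (within 0.05 of a read), so counts were not recovered and no count test was run. Depth limits genes of a few counts, such as Fezf2.

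One limma fit (limma 3.58.1, R 4.3.3, with trend) over all 28 libraries and 14 groups, with 14 residual degrees of freedom, gave 7 Dox comparisons and 6 differences between them, after a filter of 10 or more normalized counts in 2 or more libraries. P-values were two-sided and adjusted by Benjamini-Hochberg over 16837 genes. The script was tested on simulated data. The 10 factors and the gene lists were chosen with earlier results of these data known. Named besides them were, per list and line, at most the 4 called genes of largest change, the close paralogs, and the 3 genes most correlated with each of 4 members. Replicate numbers mark different clones of a line and were taken to pair Dox with no Dox, and deviations of same-numbered libraries correlated at 0.1 to 0.25 in the 7 lines. That equal numbers are the same clone is not stated. Alternatives were other pseudocounts, filters and scalings, a replicate block, only the groups compared, pooled controls, limma without trend, a lower fold threshold, and each library left out. Gene positions are NCBIM37 (mm9), and promoter sequences are RefSeq in GRCm38.p6, a different build that was used for sequence alone. Some genes of the regional lists are counted but not reported here by name.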

Additional observations from a re-analysis of the deposited data

Results flagged for a closer look

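The Dox effect on 4 of the 10 factors differed between lines in 8 comparisons, each by a limma test of the difference itself with Benjamini-Hochberg adjustment over all genes tested. For Six3 the effect in iP+A was higher than in iAtoh1 cells by 9.59 (adjusted p = 3.12e-04) and than in iPou4f3 cells by 7.14 (adjusted p = 0.00694), and the effect in iGPA minus that in iP+A was -6.17 (adjusted p = 0.00481). For Dmbx1 the difference was 3.42 for iG+A minus iAtoh1 (adjusted p = 7.95e-04) and 2.76 for iGPA minus iP+A (adjusted p = 0.00384). For Gbx2 it was 4.22 for iG+P minus iPou4f3 (adjusted p = 0.034) and 4.29 for iGPA minus iP+A (adjusted p = 0.0312). For En1 it was -3.35 for iG+P minus iPou4f3 (adjusted p = 0.0287). Of these 8 differences, the 5 of Six3 and Dmbx1 were called without each library in turn. Several share a line and are not independent. With 2 libraries per group, single libraries were not tested for standing apart.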

How the results depend on the processing

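Of the 16 called values, 9 were called under all 11 alternatives other than leaving out a library, 3 without each library of their line in turn (Six3 in iP+A, Dmbx1 in iGfi1 and iG+P), and none changed direction. The lower fold threshold, 1 of the 11, used the same fit and could only add calls. With the replicate block, which pairs Dox and no Dox, 0 of the 16 were lost, and the members called were 5 in iG+P (3 without the block), 2 for iG+A minus iAtoh1, 4 for iG+P minus iPou4f3 and 1 for iGPA minus iG+A; the block changed the count of members in no other comparison by over 1.5 times. With only the groups compared in the fit, they were 1 in iAtoh1, 0 in iG+A, 1 for iG+P minus iPou4f3 and 0 for iP+A minus iPou4f3. With all untreated libraries as 1 control, they were 1 in iAtoh1, 5 in iG+A, 6 in iP+A, 5 in iGPA, 6 for iG+A minus iAtoh1, 5 for iG+P minus iPou4f3, 5 for iGPA minus iP+A, 1 for iGPA minus iG+A and 2 for iP+A minus iPou4f3. Leaving out 1 library gave 1 to 2 in iAtoh1, 1 to 2 in iGfi1, 0 in iPou4f3, 1 to 3 in iG+A, 2 to 3 in iG+P, 1 to 2 in iP+A, 0 to 2 in iGPA, 1 to 2 for iG+A minus iAtoh1, 0 to 4 for iG+P minus iPou4f3 and 2 to 3 for iGPA minus iP+A. Where a library was left out, the lone library of its group was assumed to vary like the others. The causes were not tested.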

Other observations

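Levels of the 10 factors in the 14 no Dox libraries were compared pairwise, in 45 pairs, with 100000 permutations per pair. Otx1 and En1 gave the highest Pearson r, 0.855 (permutation p = 0.00015, Benjamini-Hochberg adjusted p = 0.00675), with Spearman rho 0.741 (permutation p = 0.00342, adjusted p = 0.0622), and r was 0.63 without the 2 libraries farthest from the median of Otx1. By Pearson r 6 pairs passed an adjusted p of 0.05 and by Spearman rho 0 did. The 14 libraries come in pairs from 7 lines and share the parental line.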
